A study of Mus musculus with 4 samples.

Results

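The genes described here are 9 transcription factor genes of the mesendoderm or of the tissues it forms (T, Mixl1, Gsc, Evx1, Mesp1, Lhx1, Msc, Hoxb1 and Meis2) and the ligand gene Fgf8, 10 genes in all. They were chosen with earlier results of these data known, and every probe of the signal table that carries 1 of these symbols was taken. Of the 10 genes, 9 had at least 1 probe, which gave 11 of the 25697 probes of the table, where 16593 genes have a probe. No probe carried the symbol T, so that gene was not analysed here. A probe was counted as detected where its detection score was above 0.99 on all 4 arrays of at least 1 group. This held for 7 of the 11 probes, those of Gsc, Evx1, Msc, Fgf8 and Meis2 and both probes of Hoxb1, among 11591 detected probes of the series. Mixl1 (2 probes), Mesp1 and Lhx1 were detected in no group.

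Mesendoderm is the population that leaves the pluripotent epiblast through the primitive streak of the gastrulating embryo and gives rise to mesoderm and definitive endoderm. Nodal, Wnt, BMP and FGF signals induce the streak, and its cells switch on T-box and homeobox factors such as T, Mixl1, Evx1 and Gsc in domains along its length. Hox genes and their TALE-class homeobox cofactors, to which Meis2 belongs, come on as mesoderm is patterned, and ES cells express most of these genes little or not at all while they self-renew.

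RNA of mouse embryonic stem cells labelled E14 was hybridised as biotin-labelled material to 1-colour Illumina bead arrays. The 4 groups were cells given hairpin RNAs against Esrrb, against Sox2, against both (EsrrbSox2, called the dual knockdown below), or against GFP as the control, with 4 arrays each, lettered A to D. All groups, the GFP control included, had been lipofected with a hairpin and kept under puromycin for 2 days before harvest. The labels do not say whether the replicates are separate transfections, so the p-values measure only the spread between these arrays, which may be technical, and the number of arrays limits the precision.

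Arrays lettered A and B (set AB) differed in all groups from those lettered C and D (set CD), with 11286 to 12054 against 12994 to 13322 detected probes and with median intensities of 24.5 to 31.1 against 17.9 to 20.9. Each set holds 2 arrays of every group, and differences within each set are given below. The intensity of Esrrb transcript averaged 2691 ± 77.5 (SD, n = 4) with its own hairpin, 4804 ± 176 with the Sox2 hairpin and 3253 ± 143 in the dual knockdown, against 12841 ± 546 with the GFP hairpin. Sox2 transcript had 495 ± 50.9 with the Esrrb hairpin, 513 ± 43.3 with its own and 371 ± 22.8 in the dual knockdown, against 795 ± 59.5 with the GFP hairpin. Esrrb transcript was therefore also lower with the Sox2 hairpin alone, at 37.4% of the control, and Sox2 transcript with the Esrrb hairpin alone, at 62.2%. With its own hairpin alone Sox2 transcript was at 64.5%, so the Esrrb and Sox2 knockdowns had similar levels of Sox2 transcript.

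Sequence before the transcript start was available from RefSeq (GRCm38.p6) for 7 of the 10 genes: T, Gsc, Evx1, Mesp1, Lhx1, Hoxb1 and Meis2. The Meis2 window lies wholly inside the annotated span of the gene, so for Meis2 no sequence outside the gene was searched. Windows of 250 bases were searched on both strands for binding motifs of the factors knocked down and of factors related to the genes described. Shown are the windows of 3 detected homeobox genes, so far as they lie outside the span of the gene. Hoxb1 (chr11:96365508-96365745, plus strand) was called higher after dual knockdown and, on ILMN_2818750 alone, after Esrrb knockdown. Gsc (chr12:104473237-104473486, minus strand) was lower after Esrrb knockdown, and Evx1 (chr6:52313248-52313497, plus strand) passed the test in no comparison of the fit without a block. Each runs 5′ to 3′, and capitals mark a motif match.
Hoxb1: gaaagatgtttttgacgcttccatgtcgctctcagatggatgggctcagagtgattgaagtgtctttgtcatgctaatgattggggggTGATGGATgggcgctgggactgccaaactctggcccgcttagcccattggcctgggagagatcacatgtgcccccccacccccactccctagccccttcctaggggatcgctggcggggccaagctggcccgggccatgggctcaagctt
Gsc: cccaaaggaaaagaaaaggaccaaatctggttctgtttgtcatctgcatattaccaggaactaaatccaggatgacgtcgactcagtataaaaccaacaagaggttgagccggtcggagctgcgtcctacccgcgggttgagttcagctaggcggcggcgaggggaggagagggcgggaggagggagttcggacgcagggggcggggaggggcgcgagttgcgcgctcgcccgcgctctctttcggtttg
Evx1: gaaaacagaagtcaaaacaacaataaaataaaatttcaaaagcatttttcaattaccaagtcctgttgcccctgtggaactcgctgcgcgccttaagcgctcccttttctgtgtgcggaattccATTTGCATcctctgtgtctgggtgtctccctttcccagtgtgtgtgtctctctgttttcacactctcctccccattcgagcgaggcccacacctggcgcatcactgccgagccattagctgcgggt
The capitals in the Hoxb1 window are a match to the PBX-HOX motif TGATNNAT, 162 to 155 bases before the transcript start of the RefSeq table, which lies inside the annotated span of the gene. Of 32851 promoter windows of the same length, 7.68% hold that motif, and the windows of Hoxb1 and Mesp1 hold it among the 7 genes. The capitals in the Evx1 window are the octamer motif ATGCAAAT on the opposite strand, 126 to 119 bases before the start, which 1.6% of all windows hold. The Gsc window holds none of the motifs searched. No window of the 7 genes holds the ESRRB motif TCAAGGTCA (0.387% of all windows), its shorter form AAGGTCA (4.08%), the SOX motif CATTGT (10.7%) or the T-box motif AGGTGTGA (1.12%), and that of Lhx1 holds the MEIS motif TGACAG (15.9%). These are descriptions of letters in a window and say nothing of binding.

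Against the GFP control, transcripts of the homeobox genes Hoxb1 and Meis2 were higher and those of Gsc and Msc lower after Esrrb knockdown. Of the Hoxb1 probes only ILMN_2818750 was called in that comparison. After dual knockdown Hoxb1 and Meis2 were again higher and Msc was lower. After Sox2 knockdown alone Msc and, more weakly, Gsc were lower, and no probe was called higher. Fgf8 and Evx1 were detected on every array and were called in none of the 7 comparisons of the fit without a block, whereas with the array letter as a block Fgf8 was called in 4 and Evx1 in 1. A difference is the mean normalized log2 value of the group named first minus that of the other, and it was called where limma's adjusted p, over all detected probes, was under 0.05. An offset of 16 was added before log2, which understates the change of dim probes, and 5 of the 7 probes averaged at most 118 intensity units in any group.

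For Esrrb against GFP, 2 of the 7 detected probes were called higher, where 5.12% of all detected probes were, and 2 were called lower, where 5.05% were. For Sox2 against GFP, 0 of 7 were called higher (20.0% of all detected probes) and 2 lower (20.2%). For the dual knockdown against GFP, 3 of 7 were called higher (20.6%) and 1 lower (21.2%). The 3 comparisons share the GFP arrays. Both probes of Hoxb1 were kept for testing through the Esrrb and dual knockdown arrays, where they are highest. The genes were also chosen with earlier results of these data known. For both reasons these counts describe the probes and give no support to a direction. In RNA of a whole culture, fewer cells of a type and less RNA per cell cannot be told apart.

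**Figure D1:**
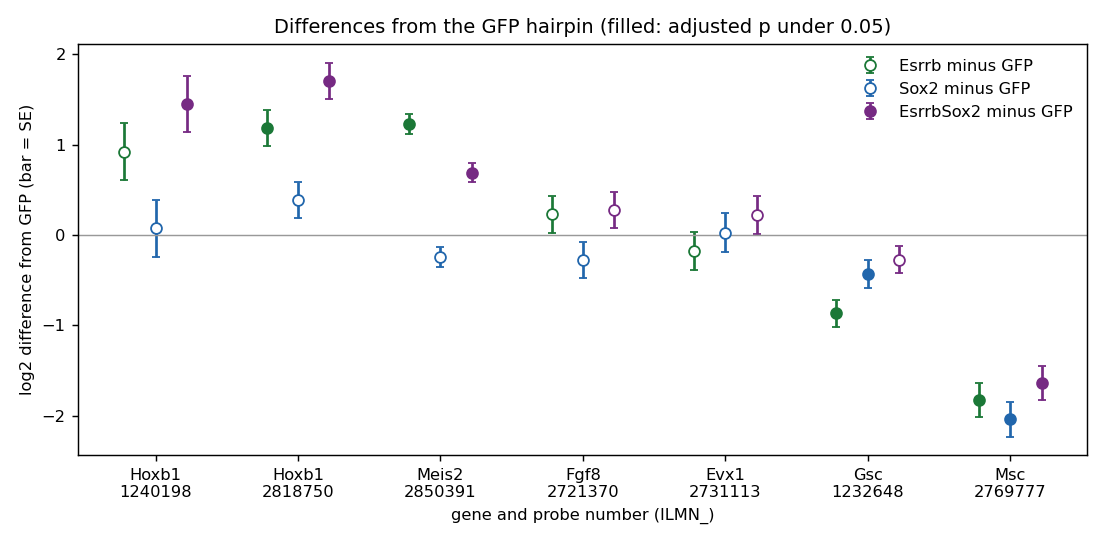
Log2 difference from the GFP hairpin (y axis) for the 7 detected probes (x axis), with Esrrb, Sox2 and dual knockdown as separate points and bars for the standard error. Filled points have an adjusted p under 0.05; the Hoxb1 and Meis2 probes lie above 0 for Esrrb and dual knockdown, and Msc lies below -1.6 in all 3.

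Hoxb1, the most 3′ gene of its Hox cluster and among the first Hox genes expressed in the posterior streak, was measured by 2 probes. On ILMN_2818750 the intensities on arrays A, B, C and D were 63.8, 57.0, 52.2 and 37.5 with the Esrrb hairpin, 16.4, 19.7, 36.0 and 23.9 with the Sox2 hairpin and 84.6, 91.4, 71.3 and 81.2 in the dual knockdown, against -13.8, 7.3, 24.1 and 16.3 with the GFP hairpin. Every array of the Esrrb and dual knockdowns lay above every GFP array, whereas the Sox2 and GFP arrays overlapped. The dual arrays also lay above all Esrrb arrays. The probe was detected on 1 of 4 GFP arrays and 2 of 4 Sox2 arrays, so the control level is close to background. The GFP arrays averaged 4.93 on the log2 scale, below the 5.43 that the lowest detected signal averaged on those arrays, so the size of a difference from GFP is only a bound. With each GFP value below the lowest detected signal of its array raised to that signal, Hoxb1 was at least 1.56-fold higher after Esrrb knockdown and at least 2.24-fold higher after dual knockdown. The fitted log2 differences, which rest on the undetected values, were 1.18 (SE 0.2, adjusted p = 0.00105) and 1.71 (adjusted p = 5.87e-06). For Sox2 knockdown it was 0.39 (adjusted p = 0.138). In set AB neither GFP array detected the probe, and the bounds were at least 1.53-fold higher for Esrrb and at least 2.15-fold higher for dual knockdown. In set CD, where 1 of 2 GFP arrays detected it, they were at least 1.59-fold and at least 2.33-fold higher.

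The other Hoxb1 probe, ILMN_1240198, had 96.5, 110.3, 55.3 and 27.3 with the Esrrb hairpin, 42.0, 42.5, 9.8 and 24.0 with the Sox2 hairpin and 147.3, 122.4, 73.6 and 82.2 in the dual knockdown, against 49.8, 40.6, 23.2 and 10.1 with the GFP hairpin. The dual arrays lay above all GFP and Sox2 arrays, while the Esrrb arrays overlapped with both. The dual difference from GFP was 1.45 (SE 0.312, adjusted p = 0.00153) and was 1.49 within set AB and 1.40 within set CD. Of the GFP arrays 3 of 4 detected this probe. With GFP values raised to the lowest detected signal, the dual level was at least 2.6-fold higher, and at least 2.4-fold higher in set CD. The Esrrb difference of 0.92 (SE 0.312) was not called (adjusted p = 0.077). The Esrrb array was above the GFP array of the same letter for all 4 letters, and blocking on the letter gave limma's adjusted p = 0.0015. The labels do not pair arrays by letter, and blocking on the array set gave 0.000514. The levels of this probe were higher by 0.77 on the log2 scale on set AB than on set CD over all groups. The values of the 2 probes correlated across the 16 arrays at r = 0.707, and at 0.968 within set AB and 0.912 within set CD, where the arrays share 4 groups.

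Both probes placed Hoxb1 higher in the dual than in the Sox2 knockdown, by 1.32 (adjusted p = 0.00107) on ILMN_2818750 and by 1.37 (adjusted p = 0.0179) on ILMN_1240198. Of the Sox2 arrays, 2 of 4 and 3 of 4 detected these probes, so differences from Sox2 rest partly on undetected values. With Sox2 values raised to the lowest detected signal, the dual level was at least 2.13-fold and at least 2.45-fold higher. The Esrrb level was at least 1.48-fold and at least 1.71-fold higher. Esrrb knockdown was above Sox2 knockdown by 0.80 (adjusted p = 0.00492) and 0.85 (adjusted p = 0.0408) on the same probes. In set CD alone neither was called, at 0.40 (adjusted p = 0.0919) and 0.69 (adjusted p = 0.0617), and the call on ILMN_1240198 was also lost when Esrrb array A or B or Sox2 array C or D was left out. The dual against Sox2 call on that probe was lost without dual array A or B or Sox2 array C, at adjusted p = 0.0536, 0.0522 and 0.0604. The dual knockdown exceeded the Esrrb knockdown by 0.52 on each probe, which was not called (adjusted p = 0.0505 and 0.204). With the array letter as a block both were called, at adjusted p = 0.043 and 0.0153.

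Meis2, a TALE-class homeobox gene whose product binds DNA together with Pbx and Hox proteins, was the brightest of these probes and was detected on all 16 arrays. ILMN_2850391 had 464.6, 449.0, 372.2 and 330.3 with the Esrrb hairpin, 124.9, 141.4, 125.6 and 139.2 with the Sox2 hairpin and 308.7, 241.6, 247.7 and 281.6 in the dual knockdown, against 145.1, 182.0, 200.9 and 171.5 with the GFP hairpin. The intensities ranked Esrrb knockdown above dual knockdown above GFP above Sox2 knockdown with no overlap between groups. After normalization the Sox2 and GFP arrays overlapped. Meis2 rose by 1.23 (SE 0.11, adjusted p = 2.32e-06) after Esrrb knockdown and by 0.69 (adjusted p = 0.000119) after dual knockdown, 231% and 154% of the control by mean intensity. The Sox2 difference was -0.25 (adjusted p = 0.0884).

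Meis2 was lower in the dual than in the Esrrb knockdown, with a difference of -0.54 (adjusted p = 0.00125), and higher than in the Sox2 knockdown, with 0.94 (adjusted p = 0.000129). The dual minus Esrrb difference was -0.67 in set AB and -0.41 in set CD, where it was not called (adjusted p = 0.0595). Esrrb knockdown exceeded Sox2 knockdown by 1.48 (adjusted p = 8.06e-08), with 1.58 in set AB and 1.38 in set CD. For Hoxb1 the corresponding dual minus Esrrb differences of 0.52 were not called without the block, and whether the 2 genes differ in this was not tested.

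**Figure D2:**
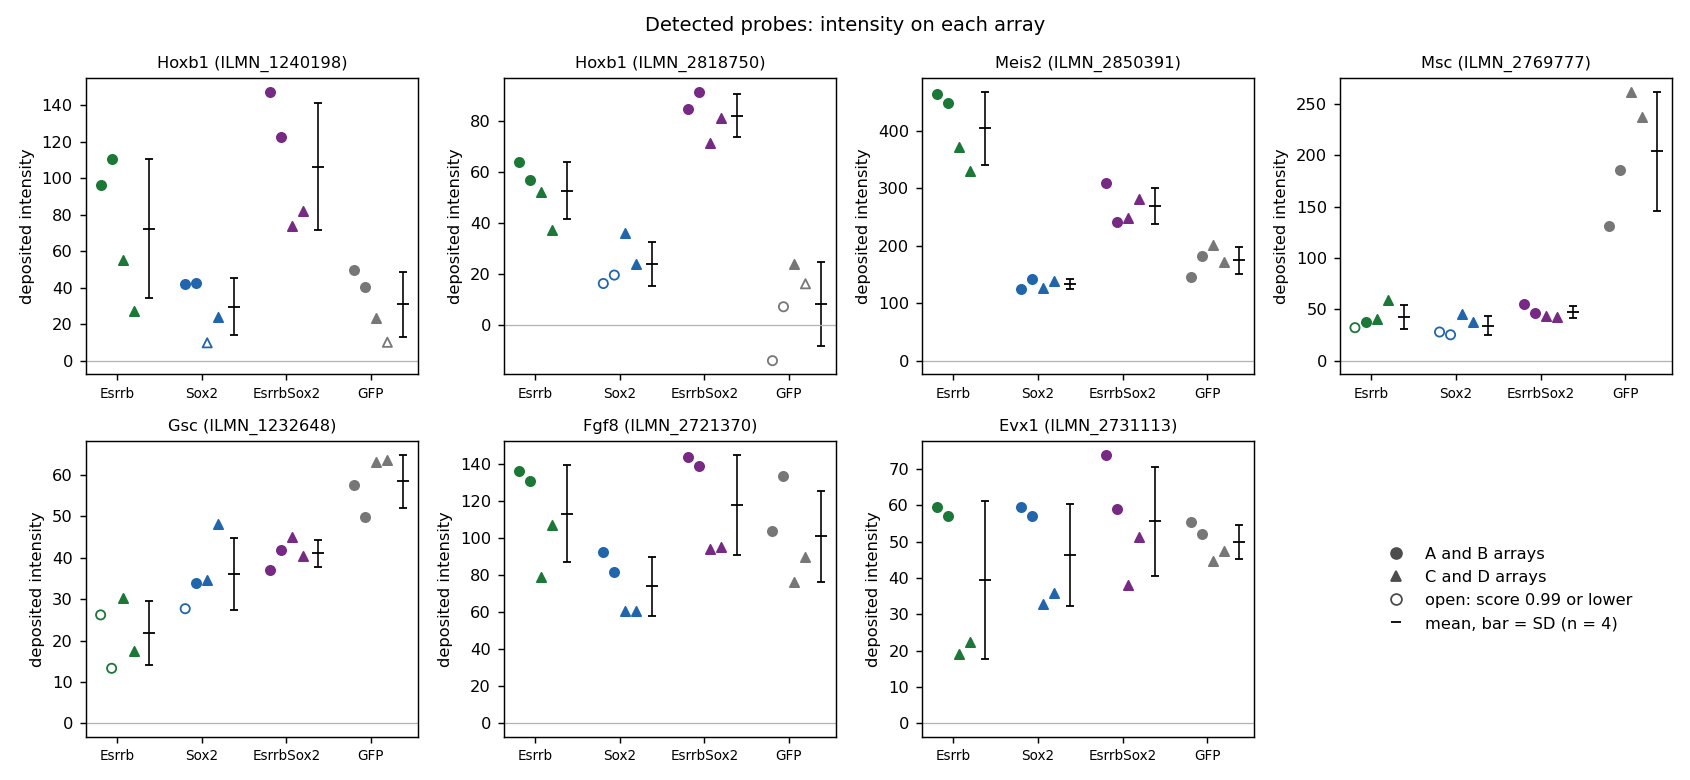
Deposited intensity (y axis, linear, scaled per panel) of the 7 detected probes on each array of the Esrrb, Sox2, dual (EsrrbSox2) and GFP groups (x axis). Circles are set AB, triangles set CD, open symbols have a score of 0.99 or lower, and black bars give mean and SD (n = 4); Msc is highest with GFP on all 4 arrays and Meis2 highest with Esrrb.

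Msc encodes musculin, a basic helix-loop-helix repressor of the branchial and skeletal muscle lineage, and was called lower in all 3 knockdowns. ILMN_2769777 had 32.1, 38.0, 40.8 and 58.6 with the Esrrb hairpin, 27.9, 25.2, 45.4 and 37.6 with the Sox2 hairpin and 55.4, 46.8, 43.7 and 42.8 in the dual knockdown, against 131.4, 185.6, 261.5 and 236.9 with the GFP hairpin. Each GFP array was above every knockdown array. The knockdown groups overlapped among themselves. The probe was detected on 3 of 4 Esrrb, 2 of 4 Sox2 and 4 of 4 dual arrays.

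Msc fell by 1.83 (SE 0.19, adjusted p = 1.17e-05) on the log2 scale after Esrrb knockdown, to 20.8% of the control by mean intensity. It fell by 2.04 (adjusted p = 6.28e-07) after Sox2 knockdown and fell by 1.64 (adjusted p = 5.44e-06) after dual knockdown, to 16.7% and 23.1%. The difference from GFP was -1.79 in set AB and -1.87 in set CD for Esrrb, and -1.29 and -1.99 for dual knockdown. For Sox2 it was -2.08 in set CD, and in set AB, where neither Sox2 array detected the probe, Msc was at least 3.59-fold lower. No pair of knockdowns passed the test against each other: dual minus Esrrb was 0.19 (adjusted p = 0.466; 0.50 with adjusted p = 0.0436 in set AB and -0.12 in set CD), dual minus Sox2 was 0.40 (adjusted p = 0.258) and Esrrb minus Sox2 was 0.21 (adjusted p = 0.4). These levels were near the lowest detected signal, which averaged 5.41 on the log2 scale over the dual arrays, where Msc averaged 6.02, and 2 of the Sox2 arrays did not detect it.

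Gsc, the homeobox gene of the anterior streak and organizer, was called lower after Esrrb and Sox2 knockdown. ILMN_1232648 had 26.2, 13.3, 30.2 and 17.6 with the Esrrb hairpin, 27.7, 34.0, 34.6 and 48.2 with the Sox2 hairpin and 37.1, 41.9, 44.9 and 40.4 in the dual knockdown, against 57.5, 49.8, 63.1 and 63.6 with the GFP hairpin. Every GFP array had a higher intensity than every knockdown array, and on the normalized scale only the Esrrb group stayed apart from GFP. Gsc fell by 0.87 (SE 0.151, adjusted p = 0.00133) on the log2 scale after Esrrb knockdown, where 2 of 4 arrays detected it. With Esrrb values raised to the lowest detected signal, Gsc was at least 1.54-fold lower. The log2 difference was -0.80 in set CD, and in set AB, where neither Esrrb array detected the probe, Gsc was at least 1.35-fold lower. After Sox2 knockdown it was -0.43 (adjusted p = 0.0322), and neither set AB (-0.48, adjusted p = 0.0817) nor set CD (-0.38, adjusted p = 0.0752) gave the call alone. Leaving out Sox2 array A, B or C or GFP array A, C or D also ended it, with the smallest difference without Sox2 array A (-0.33, adjusted p = 0.11).

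In the dual knockdown the Gsc difference from GFP was -0.27 (adjusted p = 0.164), and Gsc was above its level after Esrrb knockdown alone by 0.60 (adjusted p = 0.00566), with no overlap of the arrays. That difference was 0.49 in set CD. With Esrrb values raised to the lowest detected signal, the dual level was at least 1.27-fold higher, and at least 1.15-fold higher in set AB. Esrrb minus Sox2 was -0.44 (adjusted p = 0.0304) with overlapping arrays. Leaving out Esrrb array A, B or D or Sox2 array B, C or D ended that call, with an adjusted p of up to 0.108. With Esrrb values raised in the same way, the Sox2 level was at least 1.14-fold higher, and set AB gave no bound.

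Fgf8, a ligand that streak cells need to migrate away from the streak, was detected on all 16 arrays. ILMN_2721370 had 136.0, 130.7, 78.8 and 106.7 with the Esrrb hairpin, 92.6, 81.4, 60.6 and 60.6 with the Sox2 hairpin and 143.7, 138.7, 93.9 and 95.1 in the dual knockdown, against 103.9, 133.5, 76.3 and 89.5 with the GFP hairpin. By intensity the dual arrays, at 93.9 or more, lay above the Sox2 arrays, at 92.6 or less, and the other groups overlapped. Set AB was brighter than set CD by 0.50 on the log2 scale. No comparison was called in the fit of all arrays without a block. The difference from GFP was 0.23 (adjusted p = 0.564) for Esrrb, -0.28 (adjusted p = 0.299) for Sox2 and 0.28 (adjusted p = 0.29) for dual knockdown.

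Compared letter by letter, the Sox2 array had a lower Fgf8 intensity than the GFP array for 4 of 4 letters, and the dual array had a higher one for 4 of 4. Blocking on the letter gave the Sox2 difference an adjusted p = 0.0127 and the dual difference an adjusted p = 0.0115, at the same sizes. Esrrb minus Sox2 was 0.50, with adjusted p = 0.0589 without the block and 0.00023 with it. Dual minus Sox2 was 0.56, with adjusted p = 0.131 and 0.00116. Esrrb minus GFP was not called either way (adjusted p = 0.0827 with the block). The labels do not pair arrays by letter. With the array set as the block instead, the Sox2 and dual differences from GFP had adjusted p = 0.0205 and 0.0187 in limma. Within set AB alone Esrrb minus Sox2 was 0.47 (limma's adjusted p = 0.0318) and within set CD alone 0.53 (adjusted p = 0.025), so each set called it.

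Evx1, a homeobox gene of the posterior streak, was detected on all arrays. ILMN_2731113 had 59.6, 56.9, 19.0 and 22.4 with the Esrrb hairpin, 59.5, 57.1, 32.7 and 35.8 with the Sox2 hairpin and 73.9, 59.0, 38.0 and 51.2 in the dual knockdown, against 55.3, 52.1, 44.6 and 47.5 with the GFP hairpin. The groups overlapped, and the spread within knockdown groups followed the array sets. The Esrrb difference from GFP was -0.18 (adjusted p = 0.693) and had opposite signs within the sets, 0.20 in set AB and -0.55 in set CD. The dual difference was 0.22 (adjusted p = 0.435). Dual minus Esrrb was 0.40 (adjusted p = 0.156), called when the letter was a block (adjusted p = 0.0203).

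Mixl1, a paired-type homeobox gene of the streak, Mesp1, a bHLH gene of early cardiac mesoderm, and Lhx1, a LIM homeobox gene of the anterior mesendoderm, were not detected in any group, and no fold is given for them. The Mixl1 probe ILMN_1245893 ranged from 0.7 to 21.8 with the Esrrb hairpin, from 9.1 to 31.5 with Sox2 and from 8.6 to 40.8 in the dual knockdown, against 3.3 to 27.1 with GFP, and was detected on 2 of 16 arrays. Mesp1 ranged from 0.1 to 39.8, from 0.6 to 35.5 and from -0.4 to 38.5 in those knockdowns, against 5.6 to 43.1 with GFP, and all 4 arrays that detected it were A or B arrays. Lhx1 and the other Mixl1 probe were each detected on 1 array of 16.

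**Figure D3:**
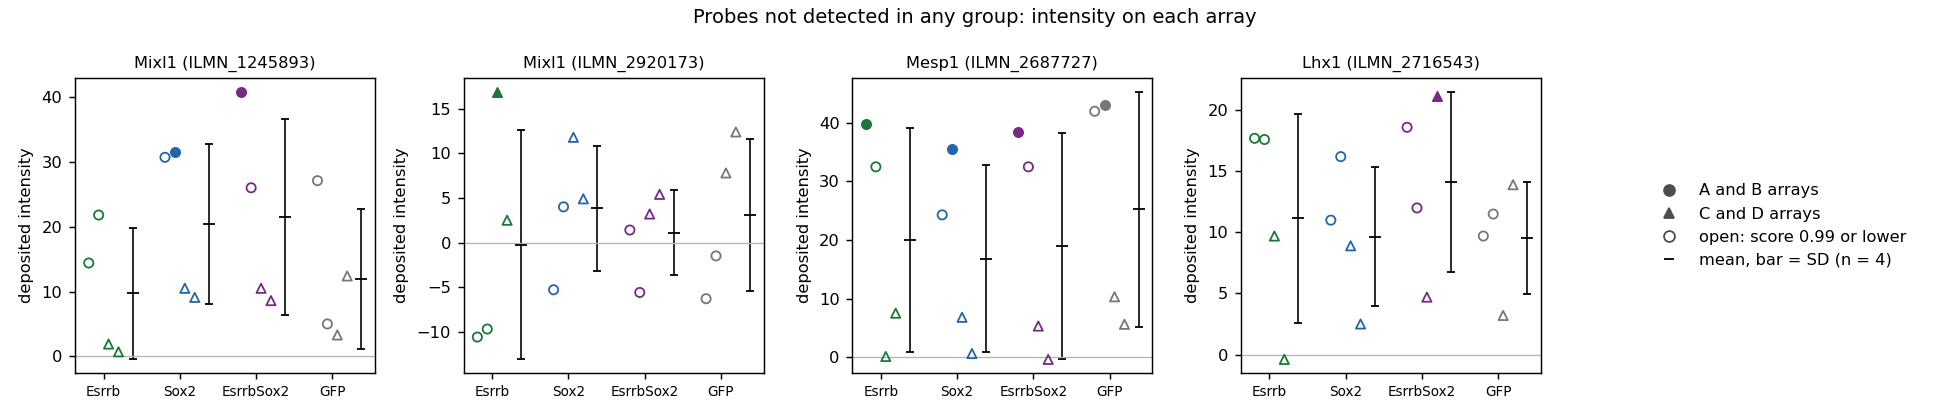
Deposited intensity (y axis) of the 4 probes not detected in any group, on each array of the 4 groups (x axis), with symbols and bars as in the plot of the detected probes. Nearly all symbols are open, and the groups overlap in every panel.

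The dual knockdown was compared with the single knockdowns directly. Against Esrrb knockdown, 2 of the 7 probes were called, Gsc and Meis2, where 37.4% of all detected probes were, and with the letter as a block 5 were. Against Sox2 knockdown, 3 were called, both Hoxb1 probes and Meis2 (5.27% of all detected probes). Esrrb against Sox2 gave 4 (39.9%): Meis2 and both Hoxb1 probes were higher after Esrrb knockdown and Gsc was lower. Both Hoxb1 probes measure the same gene and were kept for testing through the Esrrb and dual knockdown arrays, where they are highest. The genes were also chosen with earlier results of these data known. These counts therefore describe the probes and give no support to a direction.

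The interaction asks whether the dual difference departs from the sum of the single differences, each against GFP. It was called for 2 of 7 probes, Msc and Gsc, where 2.50% of all detected probes were. For Msc it was 2.23 (SE 0.269, adjusted p = 0.000259), with 1.96 (adjusted p = 0.0115) in set CD. In set AB it was 2.50 (adjusted p = 0.0171), though 1 of the groups it rests on was undetected there. The single differences would add up to a dual level of 3.78, which is below 4, the log2 of the offset and so the lowest value the scale allows, against 6.02 measured. For Gsc it was 1.03 (SE 0.213, adjusted p = 0.0174), and within the sets 1.18 (adjusted p = 0.135) and 0.88 (adjusted p = 0.127). The sum of single differences gave a Gsc level of 4.83, below the lowest detected signal of 5.41, against 5.85 measured. Both probes were detected on 4 of 4 dual arrays and averaged above the lowest detected signal there. For Msc every level the scale allows lies above the additive level, so a departure upward was fixed in advance. Neither additive level could have been measured as a detected signal. The calls, and their count of 2 of 7, therefore do not show whether the knockdowns depart from additivity. The size of the interaction cannot be read from these values either. Hoxb1 had 0.14 and 0.45 on its 2 probes (adjusted p = 0.884 and 0.709), Meis2 -0.30 (adjusted p = 0.408).

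**Figure D4:**
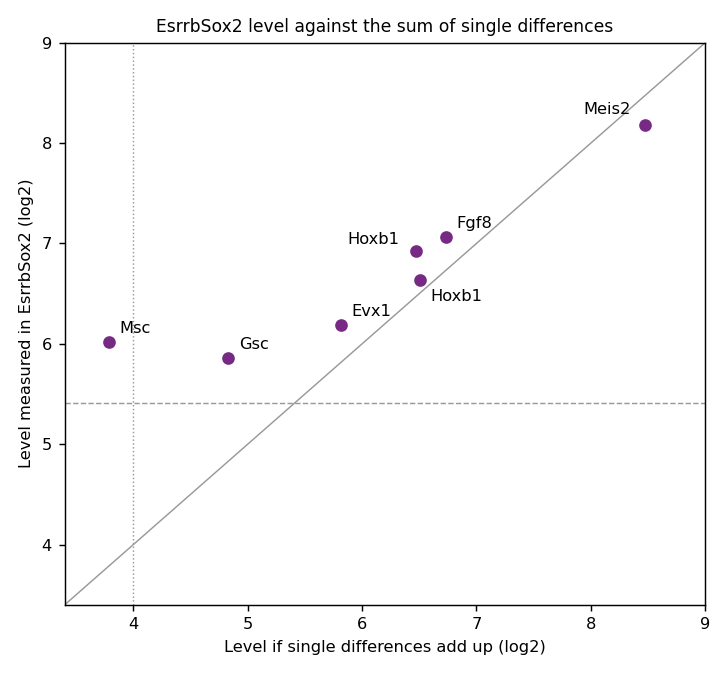
Level measured in the dual knockdown (y axis, normalized log2) against the level expected if the single differences from GFP add up (x axis, log2), for the 7 detected probes. The solid line marks equality, the dashed line the mean lowest detected signal over all arrays (5.41) and the dotted line the log2 of the offset (4); Msc and Gsc lie farthest above equality, at sums below the dashed value.

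For each gene called against GFP, the 2 genes with the most similar profile over the 16 arrays were listed by Pearson's r, as a description, since the arrays share groups and sets. They were Arhgef1 (0.913) and Wnt8a (0.889) for Hoxb1 on ILMN_1240198, and Pou3f1 and Lpar6 (0.952 each) for Meis2. For Msc they were Bcat1 (0.947) and Sun1 (0.946), and for Gsc Mfge8 (0.883) and Tfap2c (0.877).

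Other genes of the streak were counted from lists, beside which the median difference of all detected probes was 0.0029 for Esrrb, -0.0047 for Sox2 and -0.017 for dual knockdown. Of all detected probes, 5.12% were called higher and 5.05% lower after Esrrb knockdown, 20.0% and 20.2% after Sox2 knockdown, and 20.6% and 21.2% after dual knockdown, and the list counts are to be read beside these shares. Of 33 other streak and mesoderm transcription factor genes, 29 had a probe and 17 were detected. Of these 17, 0 were called higher and 4 lower after Esrrb knockdown, 5 and 6 after Sox2 knockdown, and 6 and 6 after dual knockdown. The medians of the 17 were -0.06, -0.15 and -0.17. Otx2, a homeobox gene of the epiblast and anterior neural plate, fell by 1.71 (adjusted p = 3.6e-08) in the dual knockdown, and Tcf15, a bHLH gene of paraxial mesoderm, fell by 1.58 there. Sp5, a zinc-finger target of Wnt signalling in the streak, rose by 1.44 (adjusted p = 6.74e-06). Hand1, a bHLH gene of extraembryonic mesoderm and trophoblast, was detected on no GFP array and was at least 1.48-fold higher after Sox2 and at least 1.43-fold higher after dual knockdown.

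Of 30 genes for signals that induce or restrain the streak, 29 had a probe and 20 were detected. Of these 20, 2 were called higher and 3 lower after Esrrb knockdown, 2 and 7 after Sox2 knockdown and 8 and 6 after dual knockdown (medians 0.04, -0.11 and 0.07). Lefty1, a Nodal antagonist, rose by 1.57 (adjusted p = 3.12e-07) after Esrrb knockdown. Gdf3, a Nodal-related ligand, fell by 1.30 after Sox2 knockdown. Wnt8a, a Wnt ligand of the streak, rose by 1.25 in the dual knockdown (adjusted p = 0.000325), and Wnt3a, another, fell by 1.12 after Esrrb knockdown.

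Around Fgf8, 15 of 23 listed genes for FGF ligands, receptors and ERK feedback were detected. After Esrrb knockdown 2 were higher and 3 lower, after Sox2 knockdown 1 and 10, and after dual knockdown 3 and 7 (medians 0.08, -0.71 and -0.12). The shares of all detected probes called lower in these comparisons were 5.05%, 20.2% and 21.2%. Fgf4, the main FGF ligand of ES cells, fell by 2.02 (adjusted p = 8.16e-09) and the ETS factor gene Etv4 fell by 1.84 in the dual knockdown. Spry4, a feedback inhibitor, fell by 2.03 (adjusted p = 2.49e-06), and Fgf17, of the same ligand subfamily as Fgf8, by 1.48, both after Sox2 knockdown.

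Around Hoxb1 and Meis2, 16 of 19 listed TALE and Hox genes had a probe and 10 were detected. After Esrrb knockdown limma called 0 of the 10 in either direction, with 5 at an unadjusted p under 0.05. After Sox2 knockdown 2 were higher and 2 lower, and after dual knockdown 3 and 1 (medians 0.16, 0.07 and 0.19). Hoxb4 rose by 0.81 (adjusted p = 0.00415) and the TALE gene Pknox2 by 0.91, while the TALE repressor gene Tgif1 fell by 0.44, all after Sox2 knockdown. Hoxb2, a neighbour of Hoxb1 in the cluster, rose by 0.51 (adjusted p = 0.0366) in the dual knockdown. Of 12 surface and other streak markers 10 had a probe and 5 were detected. Of these 5, 1 higher and 0 lower, 2 and 1, and 1 and 1 were called in the Esrrb, Sox2 and dual knockdowns. The receptor gene Flt1 rose by 1.89 and the Notch ligand gene Dll1 fell by 0.80 in the dual knockdown, and the filament gene Vim rose by 0.21 after Sox2 knockdown.

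Markers of ES cells were called lower in all 3 knockdowns, and markers of other cell types were called mainly after Sox2 and dual knockdown, with trophectoderm markers also after Esrrb knockdown. All 8 ES cell markers were detected, and 5 were lower after Esrrb, 7 after Sox2 and 7 after dual knockdown. Their summed signal on the normalized linear scale was 70954 to 72832, 65573 to 67897 and 60804 to 64199 in those knockdowns, against 72416 to 78774 with GFP. Dppa5a, at a mean log2 value of 15.5 with GFP and called in none of the 3, makes up most of these sums. Of 9 trophectoderm markers 7 were detected, with 3 higher and 1 lower after Esrrb knockdown and 5 higher after each of the others. Their sum was 7788 to 8523, 20134 to 23183 and 21282 to 25786, against 7853 to 8507 with GFP, where Hand1 was detected on no array. Krt8 and Krt18 make up most of the sums after Sox2 and dual knockdown. Of 8 primitive endoderm markers 6 were detected, with 0, 3 and 3 higher and sums of 1852 to 2373, 3953 to 5016 and 4859 to 5670, against 1700 to 2040, while Foxa2 was detected on no array. Col4a1, at a mean log2 value of 10.34 with GFP and 12.1 in the dual knockdown, makes up most of these sums.

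Of 6 neuroectoderm markers 2 were detected, and 1 was higher after Sox2 and after dual knockdown, with sums of 366 to 407, 422 to 557 and 476 to 589, against 361 to 413, and with Pax6, Sox1 and Pax3 detected on no array. Of 8 fibroblast markers 4 were detected, with 0, 2 and 1 higher and 0, 1 and 1 lower, sums of 1356 to 1478, 1520 to 1760 and 1430 to 1616, against 1316 to 1591, and with Col3a1 and Postn detected on no array. After Esrrb knockdown the trophectoderm markers Krt8, Krt18 and Plac1 were higher by 0.39, 0.42 and 0.50 and Tfap2c differed by -0.43, and 0 of the detected primitive endoderm, neuroectoderm and fibroblast markers were called by limma, with 3, 0 and 0 at an unadjusted p under 0.05. The part of these cell types in the values of Hoxb1, Meis2, Msc and Gsc was not tested.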

How the data were processed

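Total RNA of 4 groups was measured on 16 bead arrays. The deposited intensities are linear and not normalized, per the file headers, and 20.9 to 25.2% of an array's probes lie below 0. A detection score was deposited beside each intensity. The file headers call it a p-value, but it rises with intensity (lowest Spearman correlation 0.935), and was therefore taken to be 1 minus that p. The authors also deposited 1 processed ratio per probe and group, with scale and centring not given in the sources used here (medians 0.805, 0.818, 0.822 and, for GFP, 0.776).

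Probes were named through the table's gene identifiers, which gave 1 symbol for 23978 of 25697. From the deposited intensities, log2 values were computed with neqc of limma 3.58.1 (R 4.3.3; background from the scores, quantile normalization, offset 16). Probes with a score above 0.99 on all arrays of at least 1 group were kept, 11591 in all. limma's lmFit and eBayes fitted 1 mean per group, with Benjamini-Hochberg adjustment over these probes and calls under 0.05. The script was tested on simulated data.

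Deviations from group means correlated at 0.144 to 0.435 between same-letter arrays (24 pairs), all over 0.1, so values with the letter as a block are given where they change a call. Arrays of the other letter in the same set correlated at 0.229 to 0.432, so the letters may stand for sets.

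All 10 genes are described. From each list, up to 4 called genes with the largest difference from GFP are named, each gene by its brightest kept probe. The genes and lists were chosen with earlier results of these data known. Where arrays of a group did not detect a probe, a bound was computed with such values raised to the lowest detected signal of their array, a step chosen after the values had been seen. Alternatives covered background, scaling, offset, filter, blocks, array sets and leaving out each array. Promoter windows came from RefSeq tables (GRCm38.p6).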

Additional observations from a re-analysis of the deposited data

Results flagged for a closer look

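Within the dual knockdown, the Gsc probe had 1 array far from the others on the normalized log2 scale only. Array A had an intensity of 37.1, against 40.4 to 44.9 on the others, and a normalized log2 value of 5.63, against 5.91 to 5.95. On the log2 scale its gap to the nearest array, divided by the range of the group, was 0.879, above Dixon's 95% critical value for 4 arrays. Among 28 such groups of detected probes this was the 1 that passed, and chance passes about 1 in 20.

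The interaction of the knockdowns passed the test for Gsc, at 1.03 (adjusted p = 0.0174 by limma), and for Msc, at 2.23 (adjusted p = 0.000259). The level at which the single differences add up is 4.83 for Gsc, below the mean lowest detected signal of 5.41. For Msc it is 3.78, below the lowest value of 4 that the scale allows. Neither additive level could have been measured as a detected signal, and for Msc a departure upward was fixed by the scale. The calls therefore do not show whether the knockdowns depart from additivity, and the size of the interaction cannot be read. Both probes were detected on 4 of 4 dual arrays. The Gsc interaction was not called within set AB (adjusted p = 0.135), within set CD (adjusted p = 0.127) or with median scaling (adjusted p = 0.255).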

How the results depend on the processing

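No called difference changed direction under any alternative. Of 21 called differences of the 7 probes (49 tested), all 21 kept their call without background correction, with an offset of 50, and with the letter or the array set as a block, and 20 without normalization between arrays. With median scaling 17 kept it, with no filter 18, in the A and B arrays alone 18, in the C and D arrays alone 15, with set means as replicates 9 of 21, and 317 of 336 when 1 array was left out. The calls lost without 1 array concerned Gsc (Sox2 against GFP, Esrrb against Sox2) and Hoxb1 ILMN_1240198 (dual against Sox2 without Sox2 array C or dual array A or B, Esrrb against Sox2 without Esrrb array A or B or Sox2 array C or D). The letter block added the calls given above for Hoxb1, Fgf8 and Evx1 and changed no other call. With either block the counts became 5 for Esrrb against GFP, 3 for Sox2 against GFP, 5 for dual against GFP, 4 for dual against Sox2 and 5 for Esrrb against Sox2. The A and B arrays alone gave 5 for Esrrb against GFP and 5 for dual against GFP.

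Counts of called probes moved as follows. For Esrrb against GFP, 4 became 1 of 3 tested with detection required on every array and 2 with set means, with 4 to 5 when 1 array was left out. For Sox2 against GFP, 2 became 1 with median scaling, no filter, either array set alone or set means, 0 with detection on every array (1 at an unadjusted p under 0.05 in limma), and 1 to 2 with 1 array left out. For dual against GFP, 4 became 1 with detection on every array. For dual against Esrrb, 2 became 1 with median scaling, detection on every array or set means, 5 with either block and 4 in the A and B arrays. For dual against Sox2, 3 became 1 with detection on every array and 0 with set means (3 at an unadjusted p under 0.05 in limma). For Esrrb against Sox2, 4 became 2 with no filter, detection on every array or the C and D arrays, 1 with set means, and 2 to 5 with 1 array left out. In the C and D arrays the 2 were Meis2 and Fgf8 (limma's adjusted p = 0.025), and Fgf8 was not among the 4. For the interaction, 2 became 1 with median scaling or either set alone, and 0 with detection on every array (0 at an unadjusted p under 0.05 in limma) or set means (2 at that p). Requiring detection on every array leaves 3 probes to test, and set means leave 2 values per group. The cause of the other changes was not tested.

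Most of these probes lie close to background, which limits what the arrays can show of Hoxb1 in the control and of Msc and Gsc in the knockdowns.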

Other observations

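The authors' deposited table gives a processed ratio for the same probes, and the log2 ratios over GFP below were computed here from it. On ILMN_2818750 the authors' deposited table led to 3.15 for Esrrb, 1.99 for Sox2 and 3.84 for dual knockdown for Hoxb1. On ILMN_1240198 it led to 1.42, 0.11 and 2.14. The ILMN_2818750 values divide by a GFP ratio of 0.134, for a probe detected on 1 of 4 GFP arrays. The fitted Sox2 difference on that probe was 0.39, not called by limma (adjusted p = 0.138), with overlapping arrays. From the authors' deposited table Mesp1 came to -1.42, -1.07 and -1.55, although its probe was detected on 1 of 4 arrays in every group. For Meis2 the authors' deposited table led to 1.35, -0.23 and 0.80, and for Msc to -2.11, -2.42 and -1.90.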
